A study of Mus musculus with 34 samples.

Results

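The nuclear genes of respiratory complexes II to V were examined in the hearts of mice that had carbon black nanoparticles or vehicle placed in the airways. The genes were taken by symbol: all nuclear genes whose RefSeq symbol starts with Sdh, Uqcr, Cox and a digit, or Atp5, together with Cyc1 and Cycs, leaving out the Sdhaf names and Sds. Of the 73 RefSeq genes with such a symbol, 15 are pseudogenes, and 57 were found on the array through the accession of a probe. Of these, 54 were bright enough to be tested among 19806 genes in all: 4 of complex II, 8 of complex III, cytochrome c, 15 of complex IV, 9 assembly factors of complex IV with a Cox name, and 17 of complex V. Cox4i2, Cox8c and Cox7b2, isoforms of complex IV subunits, were well above background on 4, 2 and 0 of the 34 arrays and were not tested. Uqcr10 was not matched to a probe. The rule uses the names of the genes and no measured value, but it was set with earlier results of these data known.

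The mice were female C57BL/6 from Taconic, bought at 5 to 6 weeks of age. Exposed animals received a single intratracheal instillation of 162 µg Printex 90, an industrial carbon black, in 40 µl of vehicle followed by 150 µl of air, and control animals received the vehicle alone. The vehicle, shared by every group, was 0.9% NaCl in MilliQ water with 10% acellular lavage fluid from the lungs of C57BL/6 mice. Hearts were taken at day 1 (6 control and 6 exposed mice), day 3 (6 and 5) and day 28 (6 and 5), with 1 mouse per array, and the RNA came from a random section that contained both ventricles. On each 2-colour array the heart RNA carried Cy5 and a universal mouse reference RNA, a pool from other sources, carried Cy3. Values are log2 ratios of heart over reference, so that 1 unit is a doubling, and a change is the difference of the mean log2 ratios, carbon black minus control, with its standard error (SE).

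The respiratory chain sits in the inner mitochondrial membrane. Complex II (succinate dehydrogenase) passes electrons from the citric acid cycle to ubiquinone, complex III passes them on to cytochrome c, and complex IV (cytochrome c oxidase) hands them to oxygen. Complex V, the ATP synthase, makes ATP with the proton gradient that the chain builds up. Cardiac muscle is rich in mitochondria and draws nearly all of its ATP from this pathway, and striated muscle has its own isoforms of several complex IV subunits.

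The share of spots well above background in the heart channel ran from 42.8% to 66.6% per array, and no heart-channel spot was saturated. The dimmest array was replicate 5 of control day 1. All 16 cardiomyocyte markers, such as the sarcomere genes Myh6, Ttn and Tnnt2, were well above background on at least 1 array of every group. Of the 18 control arrays, 12 lay at position 1 of their slide, and 10 of the 16 carbon black arrays lay at position 4, which held no control. In each of the 10 pairs of a control and an exposed array that shared a slide, exposure and position therefore cannot be told apart. On 5 arrays (replicate 2 of the day 1 and day 28 controls, replicate 4 of the day 3 controls, and in exposed hearts replicate 6 of day 1 and replicate 2 of day 3) the score of 7 atrial markers lay far below that of the rest. In the controls of day 3, replicates 1, 5 and 6 had airway marker scores of 3.92, 1.73 and 2.09 and liver marker scores of 0.57, 3.81 and 2.99, while their cardiomyocyte scores were -0.45, -0.83 and -0.92. Some results that use the day 3 controls are therefore also given without these 3 arrays, an alternative added after the data were seen. Where no such value is given, how far the result depends on these arrays is not shown here. The tissue section thus differed between arrays in the transcripts of other cell types it held, and in bulk RNA fewer cells of a type and less RNA per cell cannot be told apart.

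In control hearts the respiratory genes were among the transcripts that stood highest over the reference. Their median log2 ratio was 2.0 over the 54 genes, against 0.06 over all genes tested, and 51 of 54 (94.4%) lay above 0, against 54.6% of all genes. A ratio above 2 was measured for 26 of them (48.1%, against 5.64% of all genes). Medians by complex were 2.29 in complex II, 2.44 in complex III, 1.90 in complex IV and 2.11 in complex V, with Cycs, the soluble electron carrier, at 2.78. The assembly factors of complex IV stood lower, with a median of 0.30 and a range from -1.01 for Cox18 to 2.10 for Cox20. These are levels relative to a pool, given without a test: the dyes were not swapped, and a ratio of one gene is not a transcript number that can be set against that of another gene. The median was 0.99 with median centring in place of loess and to 1.66 in the authors' value table.

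**Figure D1:**
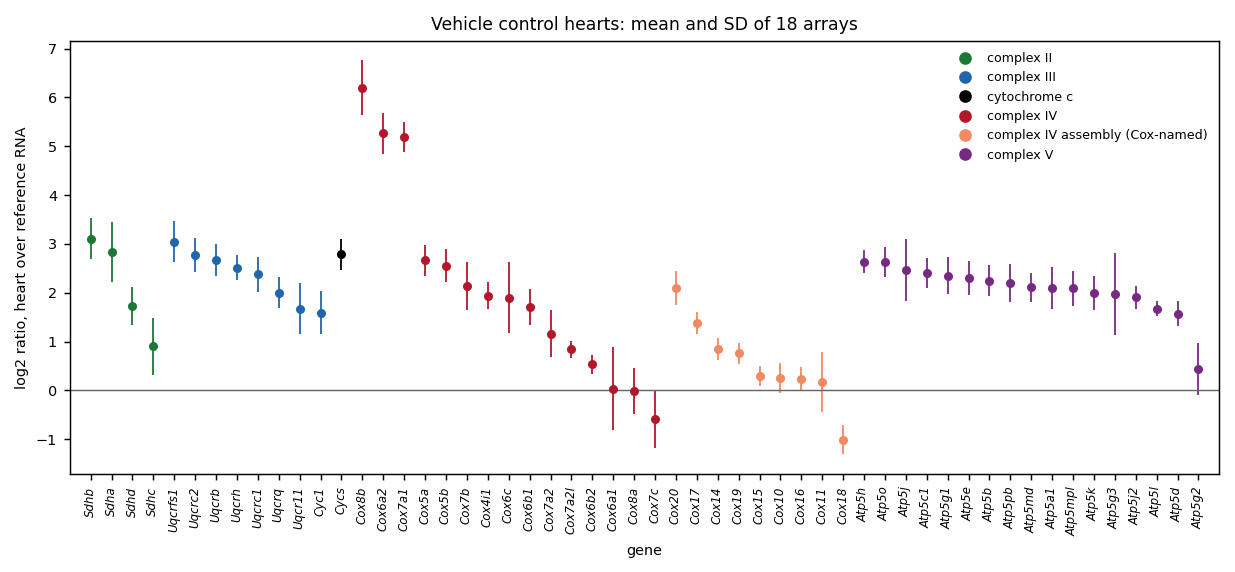
Log2 ratio of heart over reference RNA in the 18 control hearts (y axis) for the 54 respiratory genes (x axis), coloured by complex. Points are means and bars are SDs over the 18 arrays. The muscle isoforms Cox8b, Cox6a2 and Cox7a1 stand highest, at 6.20, 5.27 and 5.18, while Cox18 and Cox7c have the lowest means.

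The muscle isoforms of complex IV had the highest ratios. Cox8b, the muscle form of a small membrane subunit, had a mean of 6.20 ± 0.56 (SD, n = 18), a 73.4-fold excess over the reference. Cox6a2 and Cox7a1, the muscle forms of accessory subunits, stood at 5.27 ± 0.42 and 5.18 ± 0.30 (SD, n = 18). Their broadly expressed counterparts lay far lower: Cox8a at -0.02 ± 0.47, Cox6a1 at 0.03 ± 0.85 and Cox7a2 at 1.16 ± 0.49 (SD, n = 18). Cox4i1, the common form of the largest nuclear-encoded subunit, stood at 1.94 ± 0.28. Within each of these isoform pairs the muscle form therefore exceeded the reference by the wider margin. The lowest ratios belonged to Cox18, which helps to insert a mitochondrially encoded subunit into the membrane (-1.01 ± 0.30), to Cox7c (-0.59 ± 0.58) and to Cox8a.

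With the 3 days given equal weight, 1 of the 54 respiratory genes passed an adjusted p of 0.05 (limma, Benjamini-Hochberg over all genes tested), against a background of 1.95% of all genes (1.32% higher). That gene was Cox6b2, known as the testis isoform of the subunit that faces the intermembrane space and bridges the complex IV dimer. It rose by 0.35 ± 0.09 (SE), or 1.27-fold, with an adjusted p of 0.0448. Over the 54 genes the changes had a median of 0.07, against 0.001 over all genes, and 37 of 54 (68.5%) lay above 0, against 50.4% of all genes. With median centring in place of loess, which moved the median of all genes to 0.19, 54 of 54 lay above 0 and 52 above that median. Without the 3 day 3 controls of high airway score the median was 0.01 and 30 of 54 lay above 0, and the median was 0.04 when any 1 of these arrays was left out: replicate 5 of the exposed hearts of day 1, replicate 1 of the controls and replicate 2 of the exposed hearts of day 3, and replicate 6 of the day 28 controls. Of the 386 genes called in all, 67.9% were higher, against 100% with median centring and 54.8% in the authors' value table. An unadjusted p under 0.05 was reached by 14 of the 54 respiratory genes (25.9%, against 18.3% of all genes), 12 higher (10.8% of all genes) and 2 lower (7.50%). The 13 of these other than Cox6b2 did not pass the adjusted threshold and are given as values. In 8 of the 12 higher genes the lowest control value belonged to replicate 5 of day 1, the dimmest array. In complex II 3 of 4 genes had a change above 0, in complex III 4 of 8, in complex IV 11 of 15, in its assembly factors 6 of 9 and in complex V 13 of 17.

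**Figure D2:**
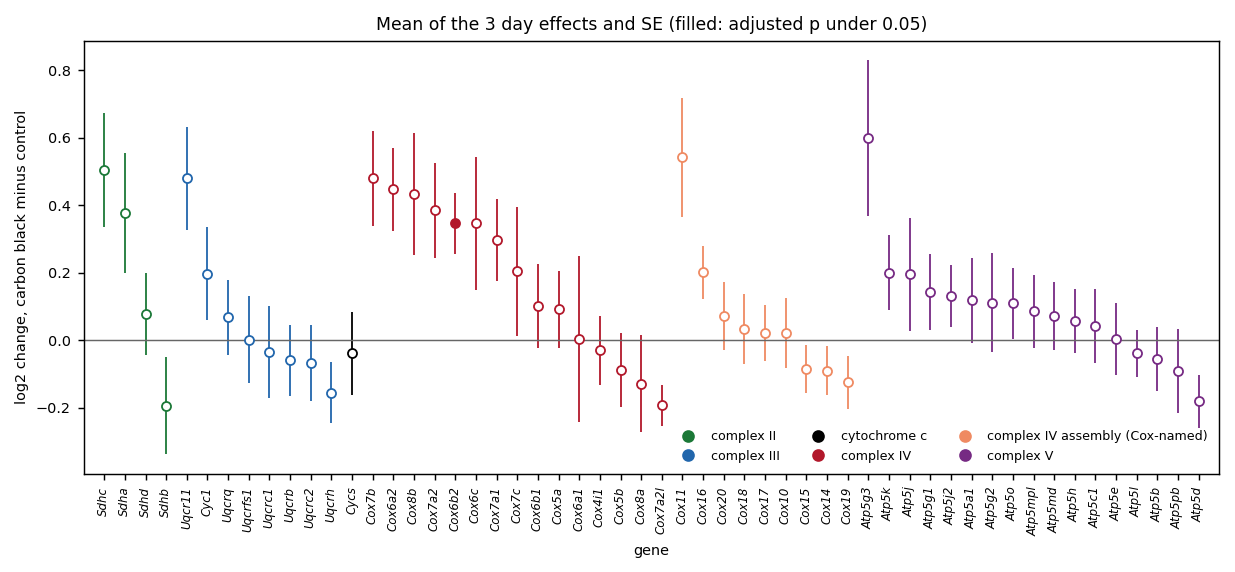
Change over all days (carbon black minus control, log2, y axis) for the 54 respiratory genes (x axis), coloured by complex. Points are changes and bars are SEs from the fit over 34 arrays; the filled point is Cox6b2, at 0.35, the 1 gene past the adjusted threshold.

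Cardiomyocyte transcripts had higher mean values in exposed hearts over the same days. Of the 16 cardiomyocyte markers 15 had a change above 0 over all days, with a median of 0.19, and 1 passed the threshold (Tnni3, cardiac troponin I, by 0.82 ± 0.22). The log2 of their summed signal ran from 18.07 to 20.78 in control arrays at day 3 and from 19.42 to 20.82 in exposed arrays. At day 1 it ran from 18.39 to 20.03 in control arrays and from 19.94 to 20.69 in exposed arrays. Such sums use background-corrected heart-channel signals that were not normalised between arrays. Differences in brightness between arrays therefore remain in them, unlike in the log2 ratios. Of the 10 fibroblast markers 8 had a change below 0 over all days (median -0.35) and 0 passed; at day 1, 10 of 10 lay below 0 (median -0.88), and at day 3, 7 of 10 lay above 0 (median 0.09). The log2 of their summed signal ran from 16.06 to 18.42 in controls and from 16.78 to 18.52 in exposed hearts at day 1. Other lists also lay below 0 at day 1: macrophage (9 of 9 markers, median -0.62), smooth muscle (8 of 8, -0.56) and endothelial (8 of 10, -0.41). Of the T and B cell markers 5 of 6 lay above 0. Exposed replicate 6 of day 1 had the lowest fibroblast score of all arrays, -2.13. The part of any of these lists in the changes of the respiratory genes was not tested.

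Cox6b2 was measured above the reference and well above background on all 34 arrays, but its signal was low. Its mean log2 heart-channel signal was 7.58, and among the respiratory genes tested only Cox10 was dimmer, at 7.13. The untested Cox4i2, Cox8c and Cox7b2 stood at 6.40, 6.32 and 6.28. At day 1 its log2 ratio ran from 0.18 through a median of 0.61 to 0.87 in controls and from 0.12 through 0.87 to 1.34 in exposed hearts. At day 3 it ran from 0.40 through 0.58 to 0.65 in controls, and the exposed hearts gave 0.78, 1.10, 0.78, 1.01 and 0.92. At day 28 it ran from 0.31 through 0.47 to 0.73 in controls, and the exposed hearts gave 0.88, 0.95, 0.60, 0.59 and 1.41. The groups overlapped at day 1, where 1 exposed heart held the lowest value, and at day 28, and did not overlap at day 3. How many of all genes tested lack overlap at a day was not counted, so this separation has no background beside it. The changes were 0.28 ± 0.15, 0.37 ± 0.16 and 0.39 ± 0.16 (SE) at the 3 days, and 15 of 16 exposed hearts lay above the control mean of their day. Among the 10 pairs that shared a slide, Cox6b2 was higher in the exposed heart in 9. The call held in 8 of 17 alternative settings, slide as a random block among them. As fixed blocks, slide (0.31, adjusted p 0.212), scan day (0.28, adjusted p 0.130) and position (0.28, adjusted p 0.635) each lost the call. So did the scanner's processed signals (0.53, adjusted p 0.162). It was lost as well with no filter on dim probes (adjusted p 0.0609) and with the mean of a gene's probes (adjusted p 0.0530). Cox6b2 has 1 probe, so its own values were the same in both settings and only those of other genes differed. The call was also lost without the 3 control day 3 arrays of highest liver marker score (0.34, adjusted p 0.134), without the 3 of high airway score (0.32, adjusted p 0.174) and with positions 1 to 3 only (0.34, adjusted p 0.567). It also depended on single arrays: it held in 9 of the 34 fits that left out 1 array, namely among the controls replicate 1, 2 or 6 of day 1, 2 or 3 of day 3 or 2 of day 28, and among the exposed hearts replicate 3 or 6 of day 1 or 4 of day 28, with an adjusted p of at most 0.0729 and a change of 0.30 to 0.39 over the 34 fits.

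The bases before the start of Cox6b2, the 1 gene past the threshold, are shown with those of Sdha, Uqcr11 and Atp5g3, which had the lowest p of their complex among the genes in the promoter table and between them hold an example of each motif searched; Sdhc, of lower p in complex II, was not in the table. The sequences are the 250 bases upstream of the RefSeq start (GRCm38.p6), written 5′ to 3′ on the strand of the gene, and capitals mark the motif named. Motifs were searched on both strands: GCGCA, any base and GCGC for nuclear respiratory factor NRF-1, CCGGAAGT for the ETS family, which includes GABP, and TCAAGGTCA for the estrogen-related receptors, all factors known to act on respiratory genes.
Cox6b2, chr7:4753095-4753344, minus strand, none of the motifs: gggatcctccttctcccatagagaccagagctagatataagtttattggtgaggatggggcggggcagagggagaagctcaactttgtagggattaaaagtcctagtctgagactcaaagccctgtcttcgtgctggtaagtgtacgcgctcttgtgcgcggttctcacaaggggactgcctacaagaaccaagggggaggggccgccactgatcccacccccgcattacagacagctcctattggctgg
Sdha, chr13:74350241-74350490, minus strand, NRF-1 letters 3 times: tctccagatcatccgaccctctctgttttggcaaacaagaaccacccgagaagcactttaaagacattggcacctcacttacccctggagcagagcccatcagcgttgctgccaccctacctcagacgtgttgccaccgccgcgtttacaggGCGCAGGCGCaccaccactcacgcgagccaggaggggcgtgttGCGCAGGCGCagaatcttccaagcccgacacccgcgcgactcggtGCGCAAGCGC
Uqcr11, chr10:80406822-80407071, minus strand, ETS letters: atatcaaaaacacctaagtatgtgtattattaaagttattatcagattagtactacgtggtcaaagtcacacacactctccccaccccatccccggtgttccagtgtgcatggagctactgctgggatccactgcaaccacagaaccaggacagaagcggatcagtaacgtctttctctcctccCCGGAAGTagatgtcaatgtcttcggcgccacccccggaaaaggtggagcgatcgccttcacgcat
Atp5g3, chr2:73911327-73911576, minus strand, estrogen-related receptor letters read on the other strand: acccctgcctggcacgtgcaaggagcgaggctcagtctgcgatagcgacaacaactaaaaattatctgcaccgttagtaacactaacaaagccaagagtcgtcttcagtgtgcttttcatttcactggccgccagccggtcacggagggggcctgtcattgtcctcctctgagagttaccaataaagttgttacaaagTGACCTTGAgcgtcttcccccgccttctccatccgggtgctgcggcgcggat
Of the 54 genes 42 were in the promoter table. The NRF-1 letters were in 7 of these (Atp5c1, Atp5g2, Atp5h, Atp5k, Cox6a1, Sdha and Sdhd), or 16.7%, against 4.23% of 27025 genes. The ETS letters were in 5 (Atp5h, Cox10, Cox16, Uqcr11 and Uqcrh), or 11.9%, against 3.23%. The estrogen-related receptor letters were in 1 (Atp5g3), or 2.38%, against 0.422%. A match describes these letters in this window and is not a measured binding site.

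In complex II the flavoprotein subunit and a membrane anchor had higher means in exposed hearts, but neither passed the threshold. Sdhc, an anchor that helps to bind ubiquinone, ran from -0.23 through 0.79 to 1.64 in controls and from 0.70 through 1.25 to 1.98 in exposed hearts at day 1. At day 3 it ran from 0.07 through 0.89 to 1.49 in controls, and exposed hearts gave 1.24, 1.74, 1.42, 1.19 and 1.51. At day 28 it ran from 0.39 through 1.11 to 1.82 in controls, and exposed hearts gave 1.40, 1.15, 1.89, 1.84 and 1.16. The groups overlapped at each day, some exposed hearts lay above the highest control of their day, and the lowest values were those of controls. The change over all days was 0.50 ± 0.17 (adjusted p 0.0934), or 0.44 (adjusted p 0.157) without control day 1 replicate 5, and it was -0.06 with processed signals. It passed the threshold in 4 of 17 alternative settings and in 1 of the 34 fits that left out 1 array. At day 3 the change was 0.61, and it was 0.23 without the 3 controls of high airway score and -0.14 with processed signals.

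Sdha, the flavoprotein that oxidises succinate, ran from 1.38 through 2.88 to 4.05 over the 18 controls and from 2.66 through 3.17 to 3.75 over the 16 exposed hearts. The control range enclosed the exposed range. Its change was 0.38 ± 0.18 (adjusted p 0.248), or 0.15 with processed signals, while a second probe of the gene gave -0.09. Sdhb, the iron-sulphur subunit, had a change of -0.19 ± 0.14 (adjusted p 0.513) and turned to 0.21 with median centring. Sdhd, the other anchor, had 0.08 ± 0.12 (adjusted p 0.804).

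In complex III the genes split evenly around 0 and none passed the threshold. Uqcr11, a small accessory subunit, ran from 0.34 through 1.95 to 2.21 in controls and from 1.90 through 2.05 to 2.40 in exposed hearts at day 1. At day 3 it ran from 0.68 through 1.65 to 2.28 in controls, and exposed hearts gave 2.50, 2.41, 2.21, 1.66 and 2.17. At day 28 it ran from 1.35 through 1.68 to 2.25 in controls, and exposed hearts gave 1.74, 1.66, 2.64, 2.31 and 2.48. The groups overlapped at each day, and the low end of the day 1 controls was 1 array, replicate 5. The change over all days was 0.48 ± 0.15 (adjusted p 0.0824), with 15 of 16 exposed hearts above the control mean of their day, and it was 0.39 (adjusted p 0.117) without that array and 0.25 with processed signals. It passed the threshold in 4 of 17 alternative settings and in 1 of the 34 fits that left out 1 array. At day 3 the change was 0.58, which was 0.30 without the 3 controls of high airway score, 0.19 without the 3 of highest liver score and 0.16 with processed signals.

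Uqcrh, the hinge protein that sits beside cytochrome c1, was the one gene of the set with an unadjusted p under 0.05 at day 1. Its ratio ran from 2.51 through 2.60 to 3.07 in control hearts and from 2.05 through 2.24 to 2.44 in exposed hearts, so the groups did not overlap. The share of all genes tested without overlap was not counted. The change was -0.45 ± 0.15 (unadjusted p 0.00572, adjusted p 0.538). At day 3 and day 28 the changes were -0.07 ± 0.16 and 0.05 ± 0.16. A second probe of Uqcrh gave a change of 0.19 at day 1 and of 0.25 over all days, against -0.16 for the probe used (0.11 with processed signals), and median centring gave 0.22, so its direction is uncertain. Cyc1, cytochrome c1 itself, had a change of 0.20 ± 0.14 over all days (adjusted p 0.477; 0.09 with processed signals and 0.11 without the 3 day 3 controls of high airway score) and of 0.43 ± 0.24 at day 28. The changes of the Rieske protein Uqcrfs1, the core subunits Uqcrc1 and Uqcrc2 and the accessory subunits Uqcrb and Uqcrq lay between -0.07 and 0.07. Cycs had a change of -0.04, and its other probes gave 0.08 and -0.04.

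Of the 14 genes with an unadjusted p under 0.05, 7 were counted with the complex IV subunits, a grouping made by symbol alone. Beside Cox6b2, the muscle isoforms Cox6a2, Cox7a1 and Cox8b and the subunits Cox7b and Cox7a2 had higher means in exposed hearts, and none of these 5 passed the threshold. Cox6a2 ran from 4.96 through 5.47 to 5.57 in controls and from 5.31 through 5.65 to 6.32 in exposed hearts at day 1. At day 3 it ran from 4.20 through 4.96 to 5.98 in controls, and exposed hearts gave 5.80, 5.75, 5.75, 5.14 and 5.85. At day 28 it ran from 5.09 through 5.41 to 5.64 in controls, and exposed hearts gave 5.52, 5.72, 6.21, 5.86 and 5.61. At day 1 and day 28 some exposed hearts lay above every control of their day, and at day 3 none did; the groups overlapped at each day. The change over all days was 0.45 ± 0.12 with an adjusted p of 0.0503, and its 3 single-day values were 0.35 ± 0.21, 0.60 ± 0.22 and 0.39 ± 0.22. Over all days Cox6a2 passed the threshold in 7 of 17 alternative settings and in 9 of the 34 fits that left out 1 array. Without the 3 day 3 controls of highest liver score the day 3 value was 0.12 and that over all days 0.29 (adjusted p 0.209), and without the 3 of high airway score they were 0.26 and 0.33 (adjusted p 0.210).

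Cox7b, an accessory subunit, ran from 0.70 through 2.24 to 2.77 in controls and from 2.18 through 2.60 to 2.85 in exposed hearts at day 1. At day 3 it ran from 1.77 through 1.97 to 2.72 in controls, and exposed hearts gave 2.46, 2.66, 2.55, 2.40 and 2.74. At day 28 it ran from 1.91 through 2.04 to 2.71 in controls, and exposed hearts gave 2.15, 2.52, 2.98, 2.93 and 3.06. The groups overlapped at each day. The change was 0.48 ± 0.14 (adjusted p 0.0613), 0.38 (adjusted p 0.0700) without control day 1 replicate 5 and 0.24 with processed signals. It passed the threshold in 5 of 17 alternative settings and in 5 of the 34 fits that left out 1 array. Cox7b was higher in the exposed heart in 10 of the 10 pairs on a shared slide.

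**Figure D3:**
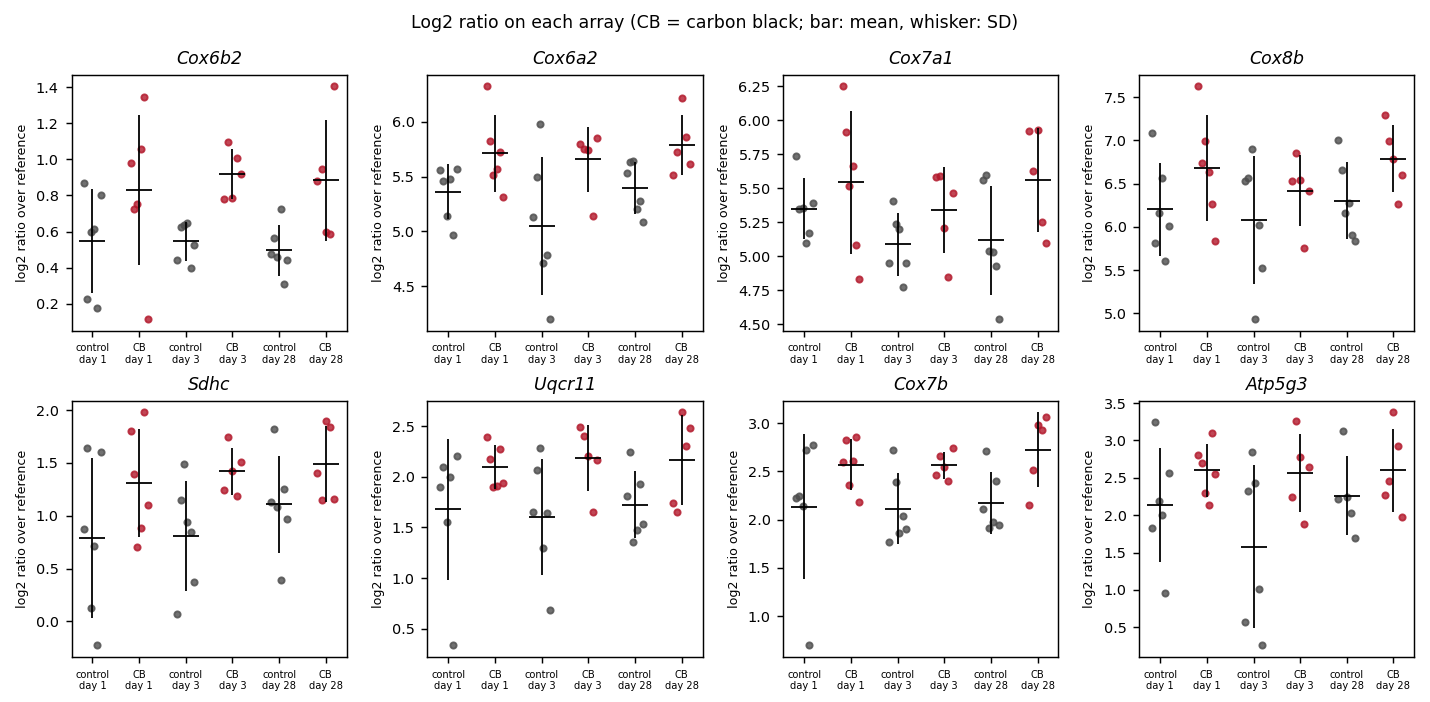
Log2 ratio of heart over reference (y axis) on each of the 34 arrays for 8 respiratory genes, by group (x axis). Points are single hearts, horizontal bars are group means and whiskers are SDs; the Cox6b2 panel shows the exposed hearts of day 3 above all controls of that day, and the low control point of day 1 in the Uqcr11 and Cox7b panels is replicate 5.

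For the other muscle isoforms the p-values were higher. Cox8b ran from 4.94 through 6.16 to 7.08 over the 18 controls and from 5.75 through 6.62 to 7.63 over the 16 exposed hearts, with a change of 0.43 ± 0.18 (adjusted p 0.183), or 0.24 without the 3 day 3 controls of highest liver score. Cox7a1 ran from 4.54 through 5.18 to 5.74 in controls and from 4.83 through 5.55 to 6.25 in exposed hearts, with a change of 0.30 ± 0.12 (adjusted p 0.174). Both ranges overlapped over most of their length. Cox7a2, the broadly expressed counterpart of Cox7a1, had a change of 0.38 ± 0.14 (adjusted p 0.129), its second probe gave 0.19, and processed signals gave 0.18. The other broad forms lay near 0, with Cox4i1 at -0.03 ± 0.10, Cox6a1 at 0.00 ± 0.25 and Cox8a at -0.13 ± 0.14, and each of these took the other sign under some alternative, such as 0.43 for Cox4i1 and 0.32 for Cox8a with median centring. The difference between muscle and broad forms was not tested. Of the remaining subunits, Cox6c (0.35 ± 0.20) and Cox7c (0.20 ± 0.19) had wide errors, and Cox5a, Cox5b and Cox6b1 lay between -0.09 and 0.10.

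Cox7a2l was the gene with the lowest p among those with a change below 0. It ran from 0.60 through 0.78 to 1.19 over the controls and from 0.46 through 0.65 to 0.98 over the exposed hearts. The ranges overlapped, and 1 of 16 exposed hearts lay above the control mean of its day. The change was -0.19 ± 0.06 (adjusted p 0.0773), and the exposed heart was the higher of its pair in 1 of the 10 pairs on a shared slide.

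Among the assembly factors of complex IV, Cox11, a copper chaperone, ran from -0.96 through 0.20 to 1.26 in controls and from 0.01 through 0.71 to 1.24 in exposed hearts. Its change was 0.54 ± 0.18 (adjusted p 0.0863). Cox16 ran from -0.20 through 0.25 to 0.57 in controls and from 0.11 through 0.40 to 0.68 in exposed hearts, with a change of 0.20 ± 0.08 (adjusted p 0.151). Its second, dimmer probe gave a larger change, 0.57 ± 0.13 (SE), so the value of Cox16 depends on the choice of probe. In both genes the exposed hearts lacked the low values of some controls, and the lowest control was replicate 5 of day 1. The heme A enzymes Cox10 and Cox15, the copper factors Cox17 and Cox19, and Cox14, Cox18 and Cox20 had changes between -0.12 and 0.07; a second probe of Cox18 gave -0.06, against 0.03.

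In complex V no gene passed the threshold. Atp5g3, which encodes a copy of the c subunit of the membrane rotor, ran from 0.96 through 2.10 to 3.24 in controls and from 2.14 through 2.63 to 3.11 in exposed hearts at day 1. At day 3 it ran from 0.26 through 1.67 to 2.85 in controls, and exposed hearts gave 2.24, 3.26, 2.78, 1.89 and 2.65. At day 28, with replicate 4 of the controls missing, the other 5 ran from 1.70 through 2.22 to 3.12, and exposed hearts gave 2.28, 2.46, 3.37, 2.93 and 1.97. The groups overlapped at each day, and over all days the controls reached from 0.26 to 3.24 and the exposed hearts from 1.89 to 3.37. The change over all days was 0.60 ± 0.23 (adjusted p 0.150), the largest of the 54 genes in this fit. It was 0.28 without the 3 day 3 controls of high airway score and 0.33 with processed signals. The other c subunit genes, Atp5g1 and Atp5g2, whose mature protein is the same, had changes of 0.14 and 0.11.

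Atp5d, a subunit of the central stalk, ran from 1.03 through 1.56 to 2.02 in controls and from 1.07 through 1.36 to 1.74 in exposed hearts, with a change of -0.18 ± 0.08 (adjusted p 0.212). The ranges overlapped, 3 of 16 exposed hearts lay above the control mean of their day, median centring turned the value to 0.23, and processed signals gave -0.04. The catalytic subunit Atp5b had -0.05 ± 0.09, and its 3 probes gave -0.05, -0.06 and 0.13. Atp5a1, the other subunit of the catalytic head, had 0.12, while its second, dimmer probe gave 0.64 ± 0.20 (SE). Atp5k, which belongs to the membrane part, had 0.20 ± 0.11 (adjusted p 0.338), or 0.11 without the 3 day 3 controls of high airway score. The other 10 genes of the complex (Atp5c1 and Atp5e of the central stalk, Atp5o, Atp5h, Atp5j and Atp5pb of the side stalk, and the membrane subunits Atp5j2, Atp5l, Atp5md and Atp5mpl) had changes between -0.09 and 0.20.

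No respiratory gene passed the threshold at any single day, where the background was 0% of all genes at each day. At day 1, 24 of 54 genes had a change above 0 (49.0% of all genes), with a median of -0.02 against -0.004 over all genes, and 1, Uqcrh, had an unadjusted p under 0.05 (7.21% of all genes, 3.89% lower). At day 3, 30 of 54 lay above 0 (52.9% of all genes), with a median of 0.05 against 0.01, and 7 had an unadjusted p under 0.05 (11.1% of all genes): Atp5g3, Cox11, Sdhc, Cox6a2, Uqcr11 and Cox6b2 higher (6.95% of all genes) and Atp5d lower (4.14%). The largest of these was Atp5g3, at 0.98 ± 0.40 (adjusted p 0.367), which was 0.03 without the 3 day 3 controls of high airway score and 0.65 without the 3 of highest liver score (replicates 4, 5 and 6). Without the 3 of high airway score, 18 of 54 genes lay above 0 at day 3, with a median of -0.14, and 1 had an unadjusted p under 0.05; without those of highest liver score 32 did, with a median of 0.05. Of 3 airway markers tested, 2 had a change below 0 at day 3 (median -1.51, 0 passed), and of 6 liver markers 5 did (median -0.47, 0 passed). For the airway markers the log2 summed signal ran from 8.75 to 15.62 in controls and from 9.02 to 11.69 in exposed hearts. For the liver markers it ran from 11.07 to 17.65 and from 11.67 to 15.17, again without normalisation between arrays. The part of these markers in the day 3 values was not tested. Single arrays also turned the median of the 54 genes: at day 1 it was 0.03, 0.01 or 0.04 without control replicate 2, control replicate 4 or exposed replicate 4, and at day 3 it was -0.04 or -0.06 without control replicate 5 or exposed replicate 2. Across the fits that left out 1 array, the count above 0 ran from 17 to 32 at day 1 and from 25 to 40 at day 3. At day 28, 46 of 54 (85.2%, against 52.0% of all genes) lay above 0, with a median of 0.20 against 0.007. An unadjusted p under 0.05 was reached by 5 genes at day 28 (2.98% of all genes): Cox7b, Cox7a1, Cox6b2 and Cox16 higher (1.60% of all genes) and Cox7a2l lower (1.38%).

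**Figure D4:**
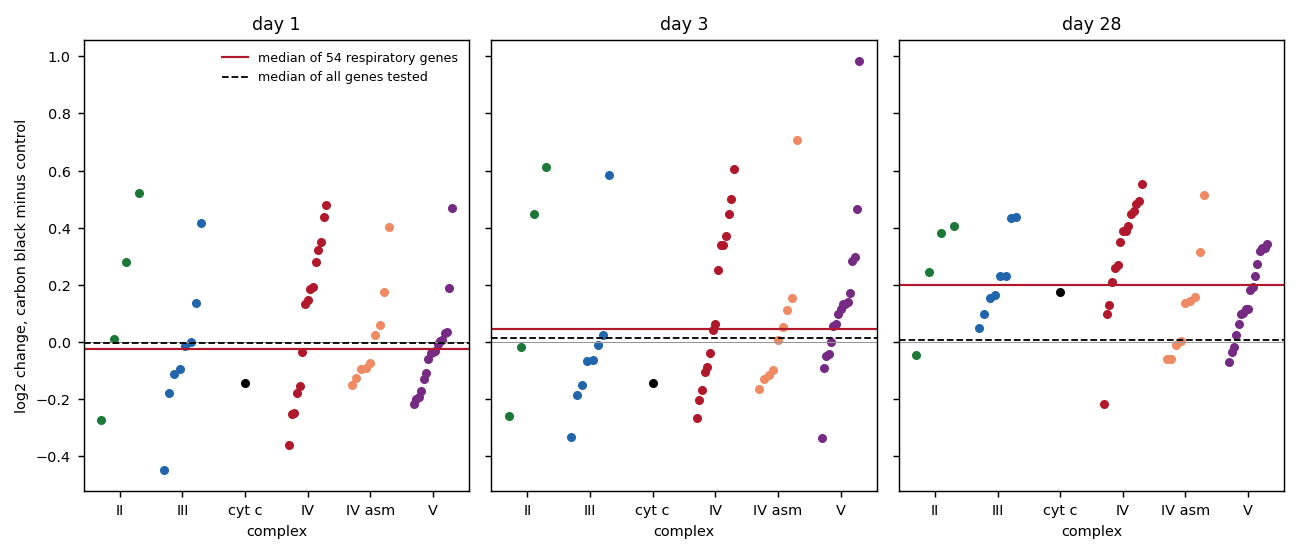
Change (carbon black minus control, log2, y axis) of the 54 respiratory genes by complex (x axis), with a panel each for day 1, 3 and 28. Each point is a gene, the solid line is the median of the 54 genes and the dashed line that of all genes tested; at day 28, 46 of 54 genes lie above 0, against 24 at day 1 and 30 at day 3.

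At day 28 the values above 0 ran through each complex. They were found for 3 of 4 genes of complex II (median 0.31), 8 of 8 of complex III (0.20), 14 of 15 of complex IV (0.39) and 14 of 17 of complex V (0.12), and for 6 of 9 assembly factors (0.14). The 8 genes below 0 were Sdhb, Cox7a2l, Cox10, Cox14, Cox19, Atp5d, Atp5e and Atp5l. The difference between days was itself tested: 0 of the 54 genes had an unadjusted p under 0.05 for exposure by day (1% of all genes), the lowest being 0.0724 for Uqcrh, and 0 passed the adjusted threshold (background 0%). Without control day 28 replicate 6, the count above 0 at day 28 was 40 and the median 0.13.

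Time alone was compared in the vehicle hearts, which share the day 28 controls with the day 28 exposure comparison. No respiratory gene passed the threshold between control days (background 0% in each). From day 1 to day 28, 9 of 54 genes had a change above 0, with a median of -0.16, while 50.6% of all genes lay above 0. The genes with an unadjusted p under 0.05 were Uqcrh, at -0.33, and Cox7c, at -0.67 (1.18% of all genes, 0.510% lower). From day 1 to day 3, 11 of 54 lay above 0 (median -0.09, 47.9% of all genes above 0), and from day 3 to day 28, 21 of 54 (median -0.04, 53.9% of all genes). These counts depended on single arrays. Without control day 28 replicate 6, 32 of 54 genes lay above 0 from day 3 to day 28 (median 0.04) and the median from day 1 to day 28 was -0.08. Without control day 28 replicate 2 the medians of these comparisons were -0.14 and -0.24, and without control day 1 replicate 4, 17 of 54 lay above 0 from day 1 to day 28. From day 1 to day 3 the median was -0.02 without replicate 5 of the day 3 controls and -0.04 without replicate 4 of the day 1 controls, and the count above 0 over the fits without 1 array ran from 6 to 19. Without the 3 day 3 controls of high airway score, 32 of 54 lay above 0 from day 1 to day 3 (median 0.09) and 10 from day 3 to day 28 (median -0.22). For Uqcrh the day 28 exposure value was 0.05 and for Cox7c 0.40.

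A score for each array, the mean over the 54 genes of their distance from each gene's median over the 34 arrays, shows which hearts were high or low. At day 28 the exposed hearts had scores of -0.19, 0.00, 0.28, 0.29 and 0.11. The controls ran from -0.47 through -0.14 to 0.32. The groups overlapped, since control replicate 2 stood above every exposed heart and exposed replicate 1 below 5 of 6 controls. At day 1 scores ran from -0.18 through 0.01 to 0.23 in controls and from -0.19 through 0.03 to 0.32 in exposed hearts, and at day 3 from -0.32 through -0.05 to 0.18 and from -0.30 through 0.01 to 0.38, again with overlap.

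**Figure D5:**
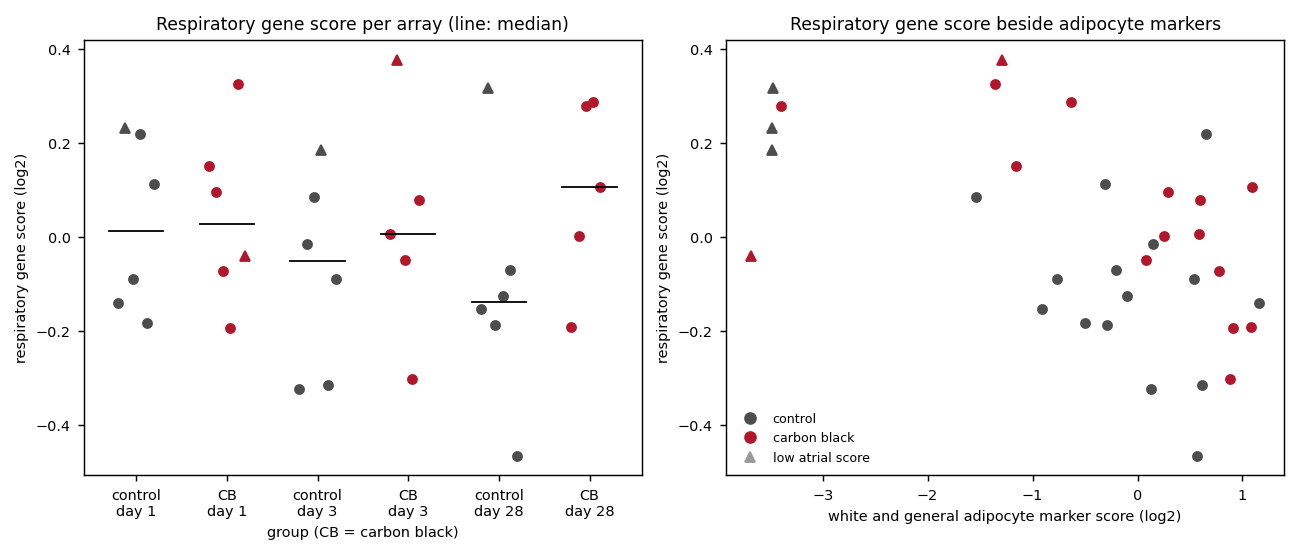
Score of the 54 respiratory genes (mean distance from each gene's median over 34 arrays, log2, y axis) on each array, by group (left panel, with group medians as lines) and beside the score of the white adipocyte markers (right panel, x axis). Points are single hearts, with triangles for the 5 arrays of low atrial marker score; the lowest point, -0.47, is control day 28 replicate 6.

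Marker scores of other cell types are set beside these scores for some arrays, without a test. Control day 28 replicate 6, with the lowest score, was the lowest control array for 24 of the 54 genes and had a T and B cell marker score of 2.78. The 5 arrays of low atrial score had respiratory scores of 0.23, -0.04, 0.18, 0.38 and 0.32. The 5 arrays of lowest white adipocyte score had 0.23, -0.04, 0.18, 0.32 and 0.28. Except for exposed replicate 3 of day 28, these are arrays of low atrial score, so the lists are not separate observations. Without the 5 arrays of low atrial score 50 of 54 genes had a change above 0 at day 28. At day 28 the exposed hearts also had higher mean values of 7 of 7 atrial markers (median 0.71), 7 of 7 brown adipocyte markers (0.62), 8 of 8 white adipocyte markers (0.41), 8 of 8 smooth muscle markers (0.30) and 14 of 16 cardiomyocyte markers (0.28). The sums that follow were again not normalised between arrays. The log2 summed signal ran from 15.32 to 20.25 in controls and from 19.43 to 20.60 in exposed hearts for the atrial markers. It ran from 11.96 to 14.42 and from 13.31 to 17.12 for the brown adipocyte markers, and from 16.55 to 18.73 and from 17.18 to 19.06 for the white. For the cardiomyocyte markers it ran from 18.99 to 20.43 in controls and from 19.75 to 21.04 in exposed hearts. Brown fat and heart muscle both carry many mitochondria, and the part of these markers in the day 28 values was not tested.

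Within the 10 pairs on a shared slide, the median difference over the 54 genes lay above 0 in 5 and below 0 in 5, from -0.74 to 0.46. For single genes the counts of pairs differed. Beside Cox7b (10 of 10) and Cox6b2 (9 of 10), Cox7a2 and Cox16 were higher in the exposed heart in 9, and Uqcr11, Sdhc, Cox6a2 and Cox11 in 8. At the other end, Cox7a2l was higher in 1, Atp5d and Cox14 in 2, and Uqcrb, Uqcrh, Cox19 and Atp5l in 3. The pair counts of single genes, here and above, have no background beside them, since none was made over all genes tested.

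The neighbouring parts of the pathway held no gene past the threshold. Of 36 complex I subunits, 24 had a change above 0 over all days (median 0.10) and 0 passed the threshold in either direction. The lowest p-values there belonged to Ndufb11 (0.57 ± 0.18, adjusted p 0.0707), Ndufb7 (0.32) and Ndufc1 (0.26), all accessory subunits. Of 24 assembly factors without a Cox or Atp5 name, 11 lay above 0 (median -0.01) and 0 passed, with Uqcc2, a complex III factor, at 0.42 (adjusted p 0.0905) and Sdhaf4, a complex II factor, at 0.40. Of 18 regulators of respiratory gene transcription and mitochondrial DNA expression, 15 lay above 0 (median 0.04) and 0 passed. Polrmt, the mitochondrial RNA polymerase, had 0.42 (adjusted p 0.0745), and the coactivator Ppargc1a had 0.31 ± 0.14 (adjusted p 0.229). Of 18 citric acid cycle enzymes, 11 lay above 0 (median 0.06) and 0 passed, with Dlst at 0.30 and Suclg1 at -0.25. At day 28 the counts above 0 were 33 of 36, 19 of 24, 14 of 18 and 15 of 18 in these 4 lists.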

How the data were processed

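Heart RNA (200 ng per mouse) was measured on 34 Agilent 2-colour arrays. Per the file headers, the authors read the scans with Feature Extraction 10.1.1.1, and the deposited scanner files give foreground and background intensity per spot on a linear scale. The deposited values are log2 ratios whose scale, centring and direction were found by comparison with the scanner values: column medians ran from -0.055 to -0.034, and r with loess ratios without background correction from 0.996 to 0.998. Scale, centring and direction are thus known. How the authors made these values is not given in the sources used here.

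Median signals were corrected with normexp (offset 50) and loess-normalised in limma 3.58.1 under R 4.3.3, with figures from matplotlib 3.10.9 in python 3.11.15. Spots flagged as outliers were dropped (0.363% of the spot values), which left 0.018% of the values of the genes tested missing. A probe was kept if 0.5 or more of the arrays of any group had it well above background, and a gene with more than 3 missing values was left out. A gene took its probe of highest mean heart-channel signal. Names came through RefSeq accessions (GRCm38.p6; 23374 of 41174 probes, 16535 genes). Where a gene had several probes, those that disagree are given in the text. The means of 6 groups were fitted with lmFit and eBayes (28 residual degrees of freedom), the all-days change being the mean of the 3 day changes, with Benjamini-Hochberg adjustment over 19806 genes and a threshold of 0.05. The scripts were tested on simulated data. The number of arrays limits the precision.

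The genes and lists were chosen with earlier results of these data known. Values are given for genes past the threshold, for the genes of smallest p in each complex, for the complex IV isoforms and complex II, and for the highest and lowest ratios over the reference. Genes with an unadjusted p under 0.05 that fall outside this, such as Cox11, Cox16 and Cox7a2l, were named after their values were seen. Replicate numbers follow the order of deposition. Alternatives covered background correction, normalisation, filter, probe choice, slide, scan day, slide position, array weights and arrays left out.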

Additional observations from a re-analysis of the deposited data

Results flagged for a closer look

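Within a group of 5 or 6 hearts, 6 of the 162 sets of values examined for the named genes and complex scores had a heart far from the others, where chance gives about 1 in 20. In control day 1 replicate 5, the dimmest array, Uqcr11 had a log2 ratio of 0.34, with the nearest control at 1.55, and Cox7b had 0.70, with the nearest at 2.14. Atp5b was 1.78 in carbon black day 1 replicate 6 (nearest 2.17). Cox6a2 was 5.14 in carbon black day 3 replicate 4 (nearest 5.75). Cox8a was 0.72 in carbon black day 28 replicate 5 (nearest -0.17). The score of the complex IV assembly factors was 0.33 in control day 28 replicate 2 (nearest -0.06).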

How the results depend on the processing

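No paired analysis was possible because the replicate numbers only follow the order of deposition and tie no heart to another. The report gives the pairs of hearts that shared a slide, and slide, scan day and position were fitted as blocks. The 1 respiratory gene past the threshold over all days became 6 without background correction (1487 of all genes, against 386), 9 with median centring (1336), 4 in the authors' value table (1498), 8 with array weights (1387), 5 without the 5 arrays of low atrial score (1006), and 2 with a filter on all arrays (397) or slide as a random block (437). It became 0 with processed signals, no filter, slide, scan day or position as a fixed block (153 of all genes with no filter and 0 with the others), without the 3 control day 3 arrays of highest liver score (1 of all genes), without the 3 of high airway score (4) or with arrays at positions 1 to 3 only (0), the last 2 chosen after seeing the data. With the mean of a gene's probes it was Cox16 in place of Cox6b2 (140). Leaving out 1 array gave 0 to 5, with 5 without control day 3 replicate 3. With median centring the median change of the 54 genes was 0.49 over all days, 0.54 at day 1, 0.50 at day 3 and 0.46 at day 28, where the medians of all genes were 0.19, 0.21, 0.29 and 0.08; the ratio over the reference had a median of 0.99, or 1.66 in the authors' table. Without 1 array the median change ran from 0.04 to 0.11 over all days, -0.10 to 0.04 at day 1, -0.06 to 0.12 at day 3 and 0.13 to 0.30 at day 28. The count above 0 at day 28 was 39 to 52 over 17 alternatives. The cause of these shifts was not tested. Dim arrays limit low values.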
